A study of Bos taurus with 20 samples.

Results

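The genes described here are 9 genes of red blood cells, chosen by their cattle symbols and matched by Entrez ID among 37063 genes. They are the globins HBA (512439), HBA1 (100140149), HBB (280813) and HBM (100140603), and ALAS2 (511791), AHSP (338381), SLC4A1 (286817), EPB42 (281754) and CA1 (510801). All 9 were found in the count tables. The counts are from whole blood of 20 recipient cows, drawn into Tempus tubes on day 63 of gestation, with 1 library per cow. The sources used here differ on the cows, which are lactating dairy recipients in the methods and Angus in an overview of the data, of a wide span of ages. Each carried a female fetus from an in vitro produced embryo of a beef dam, made with X-sorted semen. The cows form 1 group with no untreated or nonpregnant control, and they differ in the birth weight (BW) of the calf, which was 45.0 ± 10.1 kg (SD, n = 20) and ranged from 30 to 72.5 kg. Cows are named here by the weight of their calf.

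Hemoglobin carries oxygen as a tetramer of alpha-type and beta-type globin chains, each holding a heme. In developing red cells heme synthesis starts with ALAS2, the erythroid form of 5-aminolevulinate synthase. Mature mammalian red cells have no nucleus and little RNA, so globin transcripts in blood come mostly from reticulocytes, the youngest circulating red cells, of which healthy adult cattle release few. In bulk blood, fewer cells of a type and less RNA per cell cannot be told apart.

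Globin transcripts took a very small share of the blood libraries, and that share varied widely between cows. Whether globin RNA was depleted before sequencing is not given in the sources used here, so the share is no measure of globin RNA in the blood itself. The share of all counts in HBA, HBA1, HBB and HBM was lowest in the cow with the 46 kg calf, at 0.00464% (95% Wilson interval 0.00441 to 0.00488%), had a median of 0.0104%, and was highest in the cow with the 36 kg calf, at 0.108% (0.107 to 0.109%). These extremes are 23.3-fold apart, far beyond the counting error, which is the only error the intervals cover. They take counts as independent reads, and where both reads of a pair were counted they would be too narrow. The next shares were 0.0528% in the cow with the 35 kg calf, 0.0427% in the cow with the 54 kg calf and 0.0276% in the cow with the 39 kg calf. A few cows therefore held much of the globin signal. The cow with the 36 kg calf gave 23.1% of all globin counts of the series, and the 3 highest cows together gave 47.5%. Total counts ranged only from 24632077 to 39892111, and the share had no relation to them that passed its test (r = -0.17, permutation p = 0.513; rho = 0.23, permutation p = 0.339; n = 20).

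The beta chain HBB supplied nearly all of these counts, between 97.7 and 99.9% per cow. Its count was lowest at 1439, in the cow with the 45 kg calf, with a median of 3383 and a highest value of 29430 in the cow with the 36 kg calf. The cows with calves of 54 kg and 35 kg followed with 15432 and 15215. In CPM (counts scaled to a common library total with the trimmed mean of M values, TMM), HBB was 198 ± 239 (SD, n = 20), and the SD exceeded the mean.

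The alpha chains were counted far less often than HBB. HBA had a median count of 12.5 and a highest count of 179, in the cow with the 54 kg calf, and was at 0 in 2 cows. HBA1 had a median of 8 and a highest count of 164, in the cow with the 35 kg calf, and was at 0 in 4 cows. HBA and HBA1 lie next to each other in the gene order and are near-identical copies, so their separate counts, and their sum, are uncertain: how reads that match both were counted is not given in the sources used here. Their sum per 1000 counts of HBB ran from 0, in the cows with calves of 37 kg and 47.4 kg, through a median of 7.22 to 18.3 in the cow with the 54 kg calf. The cow with the 37 kg calf had 5409 counts of HBB and the highest ALAS2 count of the series beside no count of either alpha gene. These counts are not corrected for transcript length and are no measure of the ratio of the chains.

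HBM, the mu-globin gene of the alpha cluster, had a median count of 5.5, was at 0 in 7 cows and reached 84 in the cow with the 54 kg calf and 60 in the cow with the 36 kg calf. A count of 0 allows up to 3 counts, which in these libraries is 0.0752 to 0.122 CPM. The cows with calves of 36 kg, 54 kg and 35 kg had the 3 highest counts of HBB, of HBA1 and of HBM. For HBA the first 2 of these also led, with the cow with the 32 kg calf at 113 counts beside 112 in the cow with the 35 kg calf.

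ALAS2 was detected in every cow. Its count was lowest at 111, in the cow with the 45 kg calf, with a median of 452.5, and highest at 869, in the cow with the 37 kg calf. Its level was 14.6 ± 6.32 CPM (SD, n = 20), a 7.18-fold range on the log2 CPM scale. AHSP, the chaperone that binds free alpha chains, stayed between 7 and 32 counts with a median of 18. Its coefficient of variation over the counts was 37.5%, close to the 41.2% of EPB42 and 45.3% of ALAS2 and below the 109% of HBB. In the cow with the 36 kg calf, where HBB was highest, AHSP had 31 counts, and in the cow with the 35 kg calf it was at its median of 18.

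The membrane genes behaved unlike each other. EPB42, protein 4.2, which ties band 3 to the membrane skeleton, had 68 counts in the cow with the 45 kg calf, a median of 214.5 and 311 in the cow with the 40 kg calf. SLC4A1, band 3 itself, the chloride and bicarbonate exchanger of the red cell membrane, was at 0 in 8 cows and had a median of 4. Its highest counts were 52 in the cow with the 36 kg calf and 40 in the cow with the 35 kg calf. All 12 of its nonzero counts were even numbers. Other members with low counts differed, with 31.25% of the nonzero counts even for HBA1, 38.5% for HBM, 55% for AHSP and 61.1% for HBA. Low counts in these tables were even more often than odd: of all values of 1 or 2, 73.5% were 2, and of the values from 21 to 100, 51.0% were even. The part of this in the low counts of SLC4A1 was not tested, and it bears on the limit of 3 counts given for a count of 0. CA1, a cytosolic carbonic anhydrase, had 2 counts in the cows with calves of 36 kg and 40 kg and 0 in the other 18, and it is the member that did not pass the filter on low counts.

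**Figure D1:**
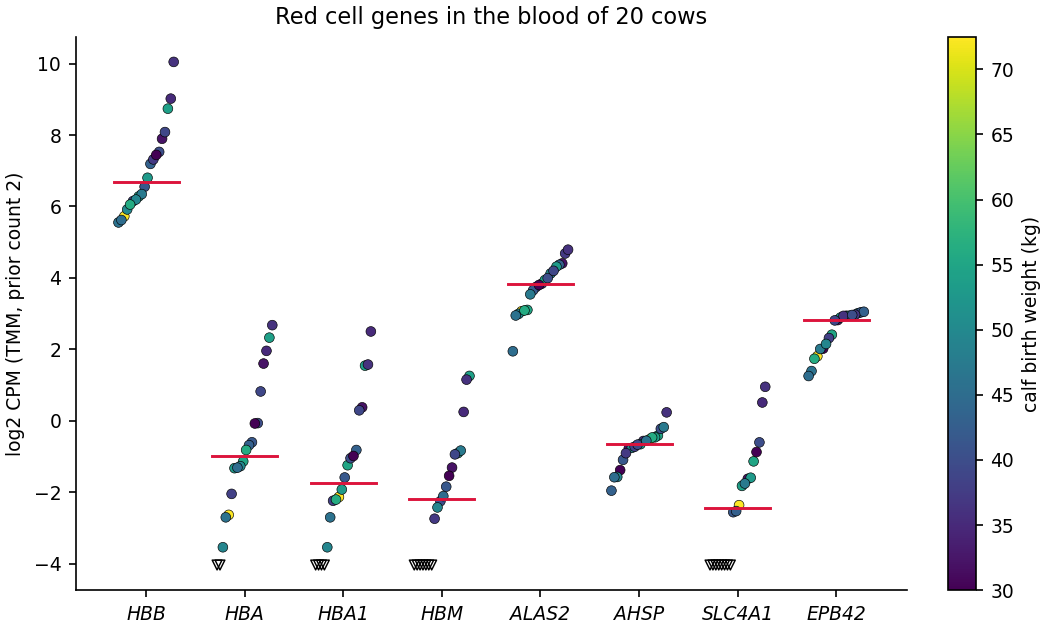
Level of 8 red cell genes in each of the 20 cows, in log2 CPM (TMM, prior count 2), with cows sorted by level within each gene and coloured by calf birth weight in kg; red lines mark medians and open triangles mark cows with a count of 0. HBB spans 5.55 to 10.05 and EPB42 1.25 to 3.05. Levels are not corrected for transcript length and do not rank the genes.

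The plot of levels by cow shows how unequal the spread was. The SD of log2 CPM (prior count 2) was 2.01 for HBA, 1.99 for HBA1, 1.77 for HBM, 1.63 for SLC4A1 and 1.24 for HBB. These SDs lay at the 99.6th, 99.6th, 99.3rd, 99.0th and 96.2nd percentile of the 16206 genes that reached 10 counts in 5 or more of 19 cows, whose median SD was 0.22. ALAS2 (0.70), EPB42 (0.59) and AHSP (0.53) lay at the 83.9th, 79.9th and 77.0th percentile. All 8 members that passed this filter varied more than the median gene, a median taken over genes of all levels. AHSP had only 7 to 32 counts, so counting error is part of its SD, and how large a part was not tested. Its SD was 0.45 with a prior count of 5 and 0.58 with one of 0.5. For HBA, HBA1, HBM and SLC4A1 the SD rests on counts near 0 and moves with the prior count, while for HBB it is 1.23 to 1.24 under the other scalings and prior counts tried. The percentile of HBB still moved, to 89.0 with a prior count of 0.5 and 98.9 with one of 5, as the SDs of other genes changed.

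The members varied together to different degrees. Over the 28 pairs of the 8 members that passed the filter, all 28 Pearson correlations of log2 CPM were positive, with a median of 0.47. Of these, 13 had a permutation p below 0.05 after Benjamini-Hochberg adjustment over the pairs (11 with Spearman's rho). The same shares over pairs of all genes were not computed. Of all genes, 2.81% had an r above 0.5 with HBB and 4.99% with ALAS2. HBA, HBA1, HBM and SLC4A1 were at 0 in 2, 4, 7 and 8 cows, which tie at the lowest level of each gene. HBA and HBA1 correlated most (r = 0.90, rho = 0.89, n = 20 cows), a pair in which reads can be shared. HBB correlated with HBA1 (r = 0.84, rho = 0.80), HBM (r = 0.80, rho = 0.74) and HBA (r = 0.79, rho = 0.74), with adjusted permutation p of at most 0.000448 for r. ALAS2 and EPB42 correlated at r = 0.85 and rho = 0.72 (permutation p = 1e-05, the smallest that the resamples can give, adjusted p = 9.33e-05; r = 0.80 without the 2 cows farthest from the median of ALAS2).

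HBB and ALAS2 were also correlated (r = 0.68, rho = 0.73, adjusted permutation p = 0.00375 and 0.00218), and r was also 0.68 without the 2 cows farthest from the median of HBB. HBB and EPB42 had r = 0.63 (adjusted permutation p = 0.00971; 0.65 without 2 cows). The relation of HBB with SLC4A1 (r = 0.69, adjusted permutation p = 0.00375) was 0.42 without those 2 cows and so rests partly on them. HBM with HBA and with HBA1 had r = 0.62 for both. Without the 2 cows farthest from the median of HBA or of HBA1, r was 0.40 and 0.44. By rank neither pair passed (adjusted permutation p = 0.0506 and 0.0519). For ALAS2 and EPB42 with the low-count genes HBA, HBA1, HBM and SLC4A1, r was between 0.37 and 0.48 and no pair passed the adjustment. AHSP passed with no other member; its highest r was 0.43, with SLC4A1.

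**Figure D2:**
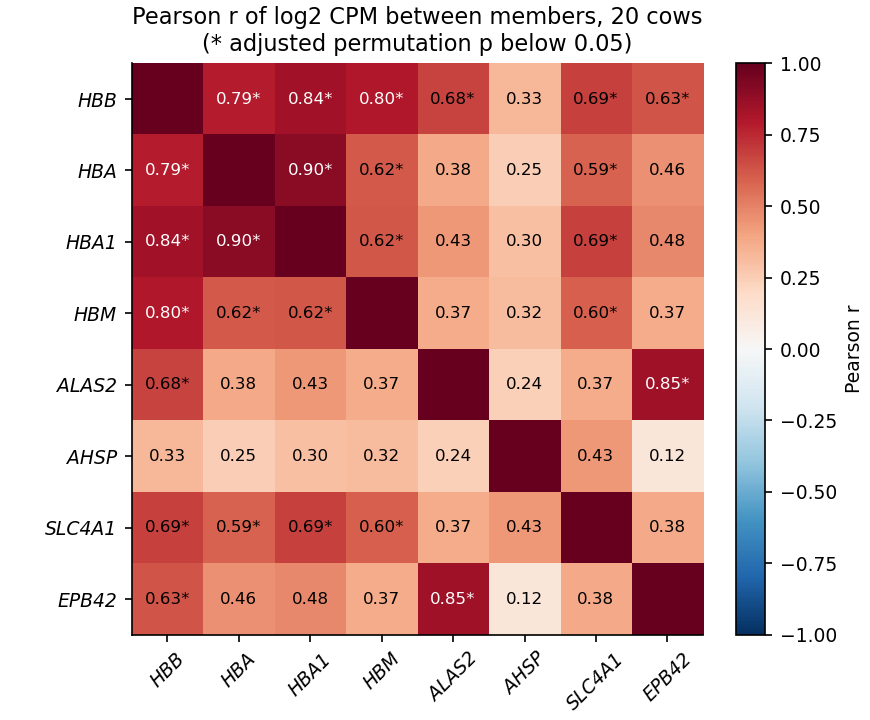
Pearson r of log2 CPM between 8 red cell genes over 20 cows, with an asterisk where the adjusted permutation p is below 0.05. All pairs among the globins and SLC4A1 have an asterisk, though HBM with HBA and HBA1 did not pass by rank. ALAS2 and EPB42 pair at 0.85, HBB correlates with both, and no pair with AHSP has an asterisk.

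Of the genes outside the members, the 5 whose level was most like that of HBB across the 20 cows were ATP5IF1 (r = 0.94), REEP1 (0.92), HBG (0.91), LOC132346366 (0.82) and MRPS27 (0.81), while the 95th percentile of r with HBB over all genes was 0.45. These r are given as a description, since the genes were picked for them from libraries they share. ATP5IF1, the inhibitor of the mitochondrial ATP synthase, which is also needed for heme synthesis in developing red cells, ranged from 115 to 585 CPM, so it followed HBB at a high count. HBG, a fetal-type beta-like globin gene that stands in the same cluster as HBB, had 9 to 128 counts with a median of 30, and its highest counts, 128 and 122, were in the cows with calves of 36 kg and 35 kg, where HBB was also high. HBG and HBB are related in sequence, and how reads matching both were counted is not given. The genes most like ALAS2 were DVL2 (r = 0.81), MAP3K3 (0.80), BTG1 (0.79), SELENBP1 (0.79) and PSMG4 (0.78), with a 95th percentile of 0.50. SELENBP1, a selenium-binding protein abundant in red cells, is also among the listed genes of late maturation.

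**Figure D3:**
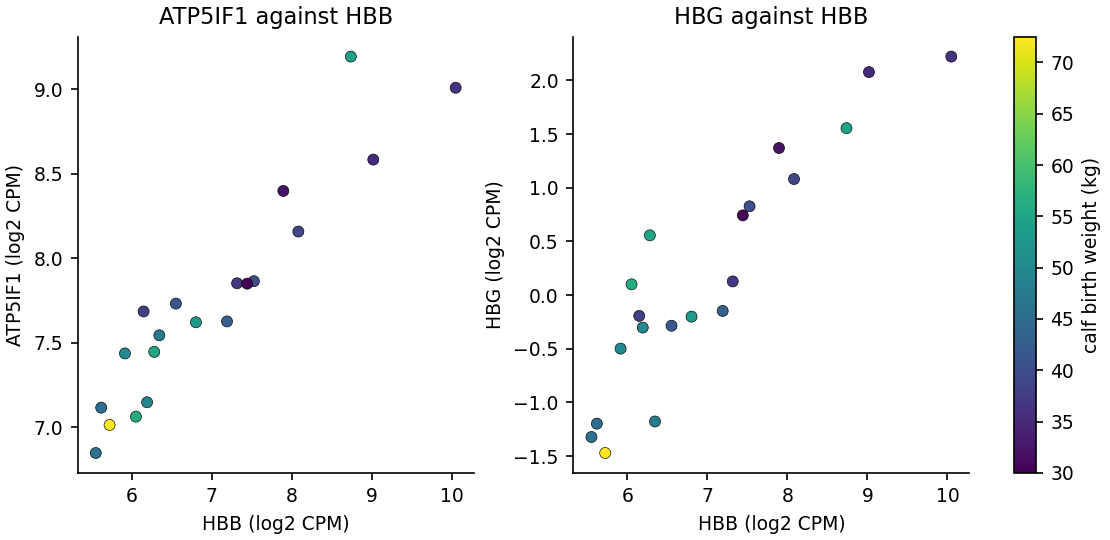
ATP5IF1 (left) and HBG (right) against HBB in log2 CPM, 1 point per cow (20 cows), coloured by calf birth weight in kg. Both are higher where HBB is higher, with r of 0.94 and 0.91, and the cows with calves of 36, 35 and 54 kg are at the upper right of both panels.

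Markers of other blood cells moved with ALAS2 and HBB in some cases. For these relations the 2 cows left out are those farthest from the median of the marker sum, so they can differ between lists. Of 14 relations between 7 summed marker lists and these 2 genes, ALAS2 correlated with the neutrophil sum (3313 to 5999 CPM, 9 of 9 markers with counts; r = 0.61, rho = 0.53, adjusted permutation p = 0.0334 and 0.0479; r = 0.41 without 2 cows). It also correlated with the monocyte sum (272 to 580 CPM, 4 of 5 markers with counts, FCGR1A at 0 in all 20 cows; r = 0.61, rho = 0.75, adjusted permutation p = 0.0334 and 0.00364; r = 0.68 without 2 cows). With the platelet sum (626 to 1816 CPM, 8 of 8 with counts) ALAS2 had r = 0.56 and rho = 0.53 (adjusted permutation p = 0.0509 and 0.0479).

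HBB had r = 0.48 and rho = 0.55 with the monocyte sum (adjusted permutation p = 0.0684 and 0.0479). With the eosinophil list it had r = -0.51 and rho = -0.58 (adjusted permutation p = 0.056 and 0.0479), but of 5 markers 2 were matched and IL5RA alone had counts, with 20.2 to 200 CPM and CCR3 at 0 in all cows. For the natural killer cell sum (118 to 236 CPM, 4 of 5 with counts, GZMA at 0) HBB had r = -0.52 and rho = -0.47 (adjusted permutation p = 0.056 and 0.0742; r = -0.71 without 2 cows). With the neutrophil sum HBB had r = 0.44 and rho = 0.48 (adjusted permutation p = 0.101 and 0.0742), and with the platelet sum r = 0.30. With the T cell sum (631 to 997 CPM, 5 of 5 with counts) and the B cell sum (568 to 1049 CPM, 5 of 5 with counts) the adjusted permutation p of both genes was at least 0.297. The part of these cells in the levels of ALAS2 and HBB was not tested.

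The study asked whether maternal blood at day 63 relates to calf BW. For the globin share, nearly all of it HBB, cows of light calves tended to have the higher values by rank. No member passed the test over all genes. HBB alone gave the same Spearman's rho with BW as the share (-0.57, permutation p = 0.00933). The share and the slope of HBB are therefore not separate results. Among the cows of the 10 lightest calves (30 to 43 kg) the median globin share was 0.0182% and 8 were above the median of all 20 cows. Among the cows of the 10 heaviest (45 to 72.5 kg) the median was 0.00705% and 2 were above it, the cows with calves of 54 kg and 53 kg. The ranges of the 10 lightest (0.00716 to 0.108%) and the 10 heaviest (0.00464 to 0.0427%) overlapped widely.

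Over the 20 cows the globin share and BW had a Spearman's rho of -0.57 (permutation p = 0.00933, 0.0187 after adjustment for the 2 relations computed) and a Pearson's r of -0.37 (permutation p = 0.102, adjusted p = 0.204). Without the cows with calves of 72.5 kg and 30 kg, which lie farthest from the median BW, rho was -0.52 (permutation p = 0.0274) and r was -0.41 (permutation p = 0.078). On the log2 scale r was -0.51 (permutation p = 0.0212). Leaving out each cow in turn gave rho between -0.71, without the cow with the 54 kg calf, and -0.52, without the cow with the 35 kg or of the 36 kg calf. The rank relation thus had an unadjusted permutation p below 0.05 in each of these sets of cows, while the linear relation on the share itself did not. For the reduced sets and the log2 scale the p were not adjusted for the 2 relations.

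**Figure D4:**
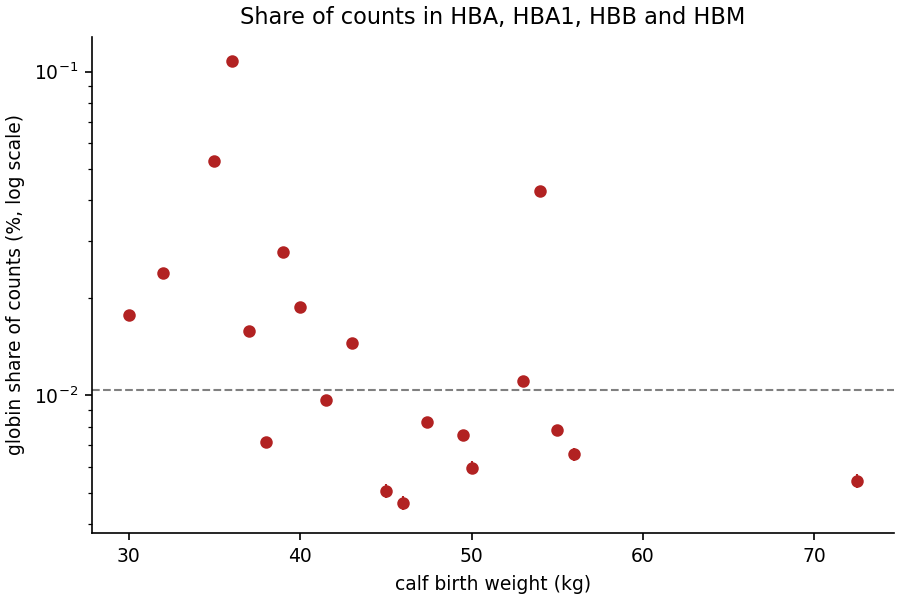
Share of counts in HBA, HBA1, HBB and HBM (percent, log axis) against calf birth weight in kg, 1 point per cow (20 cows), with 95% Wilson intervals where they exceed the point and a dashed line at the median of 0.0104%. Of the cows of the 10 lightest calves 8 are above the line, and of the 10 heaviest 2, including the cow with the 54 kg calf at 0.0427%.

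The regression on BW was fitted across all genes to 19 cows. The cow of the heaviest calf was left out, as in the model of the study's methods. None of the 8 members had an FDR below 0.05 with edgeR's quasi-likelihood test, and none did with DESeq2. Of all 16206 genes edgeR called 0 (0.0%) and DESeq2 called 189 of 15478 (1.22%). At an unadjusted p below 0.05 edgeR had 1 of the 8 members, HBB, or 12.5%, beside 2247 genes (13.9%) of all those tested. This count depended on single cows: with 1 cow left out it ran from 0, without the 36 kg or the 56 kg calf's cow, to 4 (HBB, HBA, HBA1 and ALAS2), without the 54 kg calf's cow, where 2201 of 16102 genes had such a p. With a negative slope and such a p there was also 1 of 8, beside 7.08% of all genes. The slope was negative in 7 of the 8, with 53.4% negative over all genes, and the members' median slope was -0.044 log2 per kg beside -0.00072 for all genes. The members are correlated, so these 8 slopes are not independent.

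The slope of HBB was -0.072 log2 per kg (SE 0.031, 95% interval -0.14 to -0.0067, edgeR p = 0.0322, FDR = 0.307), which is 0.606-fold per 10 kg of calf weight (0.385 to 0.954). With DESeq2 its FDR was 0.305, and over the 8 other settings the FDR was between 0.237 and 0.407. It was -0.12 without the cow with the 54 kg calf (edgeR FDR = 0.129) and -0.042 without the cow with the 36 kg calf (edgeR FDR = 0.555), and with each of the 19 cows omitted in turn its unadjusted p was below 0.05 in 15 fits. It was also not below 0.05 with the total count as covariate, where ALAS2 was the member with such a p. The exceptions among the 19 were those without the cows with calves of 35 kg, 36 kg, 55 kg and 56 kg. ALAS2 had a slope of -0.035 (SE 0.017, edgeR p = 0.0505, FDR = 0.361), or 0.786-fold per 10 kg. The slopes of the alpha chains were -0.054 for HBA (SE 0.049, edgeR FDR = 0.669) and -0.073 for HBA1 (SE 0.055, edgeR FDR = 0.597), and without the cow with the 54 kg calf they were -0.16 and -0.19. At the other end, HBA had -0.029 without the 36 kg calf's cow and HBA1 -0.030 without the 35 kg calf's cow. For SLC4A1 the slope was -0.10 (SE 0.058, edgeR FDR = 0.452), with an interval of 0.210 to 1.13-fold per 10 kg.

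The other members had slopes near 0 or of wide interval. EPB42 had -0.014 (SE 0.016, edgeR FDR = 0.742), which was -0.0069 without the 56 kg and -0.023 without the 30 kg calf's cow. AHSP had 0.0037 (SE 0.019, edgeR FDR = 0.957), a sign that turned without the cow with the 30 kg calf. HBM had -0.012 (SE 0.056, edgeR FDR = 0.953), which was -0.13 without the cow with the 54 kg calf and 0.026 without the cow with the 36 kg calf. Changes of 0.724 to 1.14-fold per 10 kg for EPB42 and of 0.409 to 2.08-fold for HBM lie within their intervals.

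The other genes of the pathway were read from 6 lists with 85 genes matched of 89 listed, of which 75 were tested. Of these, 8 had an r above 0.5 with HBB (2.81% of all genes did) and 10 with ALAS2 (4.99%). Which blood cells the counts of the listed genes came from was not tested. None of the 75 had an FDR below 0.05 with edgeR, and 11 had an unadjusted p below 0.05 (14.7%, beside 13.9% of all genes). DESeq2 called 1 of these listed genes, CA2, beside 189 of 15478 genes (1.22%) over all genes. Of the other globins, HBQ1, the theta-globin gene of the alpha cluster, had 47 to 95 counts, a slope of 0.014 (edgeR FDR = 0.510) and an r of -0.39 with HBB, whereas HBG had a slope of -0.051 (SE 0.026, edgeR FDR = 0.397). The embryonic globins HBZ, HBE1, HBE2 and HBE4 had between 0 and 8 counts, and NGB, neuroglobin, was at 0 in all 20 cows.

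Among the 8 genes of heme synthesis, 4 slopes were positive and 4 negative. An unadjusted p below 0.05 was found for 1 of the 8 (12.5%, beside 13.9% of all genes). That gene was UROS, uroporphyrinogen III synthase (slope -0.031, edgeR p = 0.00996, FDR = 0.216). FECH, ferrochelatase, which inserts iron in the last step, and ALAS1, the housekeeping counterpart of ALAS2, had slopes of 0.0053 and 0.0014, and FECH had r of -0.55 with HBB and -0.42 with ALAS2. No gene of this list had a positive r above 0.5 with either, beside 2.81% of all genes with HBB and 4.99% with ALAS2. In a list of 8 genes such small shares cannot be told from none. Of the 16 genes of heme and iron handling, 12 slopes were negative (53.4% are over all genes), and the smallest p was that of BLVRA, biliverdin reductase A (0.019, edgeR p = 0.0171, FDR = 0.253). FTH1, the ferritin heavy chain, had r of 0.51 with HBB and 0.63 with ALAS2 and a slope of -0.0061, and EIF2AK1, the heme-regulated kinase of translation, had a slope of -0.0025.

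Of the red cell membrane and skeleton genes 15 of 18 were tested, 11 with a negative slope (53.4% over all genes). Of these 15, 1 gene (6.67%, beside 13.9% of all genes) had an unadjusted p below 0.05. TMOD1, tropomodulin, which caps actin filaments of the skeleton, had the smallest p (slope -0.061, SE 0.018, edgeR p = 0.00323, FDR = 0.174) at 0.164 to 1.29 CPM. EPB41, protein 4.1, and ADD1, adducin, had slopes of 0.0035 and 0.0012. Of 11 erythroid transcription factors and receptors tested, 6 slopes were positive and 4 genes (36.4%, beside 13.9% of all genes) had an unadjusted p below 0.05, 2 in each direction. GATA1, the erythroid master regulator, also made by megakaryocytes, eosinophils and mast cells, had a positive slope of 0.050 (SE 0.018, edgeR p = 0.0112, FDR = 0.222) and an r of -0.47 with HBB. NFE2 had -0.0054 and LDB1 0.0028. EPOR, the erythropoietin receptor, was at 0 in 17 cows.

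Among the 21 tested genes of late maturation and enzymes, 16 had a negative slope (53.4% over all genes). An unadjusted p below 0.05 was found for 3 of them (14.3%, beside 13.9% of all genes). CA2, the carbonic anhydrase of high activity in red cells, had a slope of -0.058 (SE 0.013), or 0.671-fold per 10 kg (0.559 to 0.805), with an edgeR FDR of 0.0976 and a DESeq2 FDR of 0.00802. With all 20 cows its slope was -0.036. Its counts ran from 57 through a median of 144 to 308 in the cow with the 35 kg calf, and its r was 0.75 with HBB and 0.61 with ALAS2. While CA1 was at or near 0, CA2 was thus counted in every cow. GPX1, glutathione peroxidase, and BNIP3L, which removes mitochondria from maturing reticulocytes, had slopes of -0.00019 and 0.0053.

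**Figure D5:**
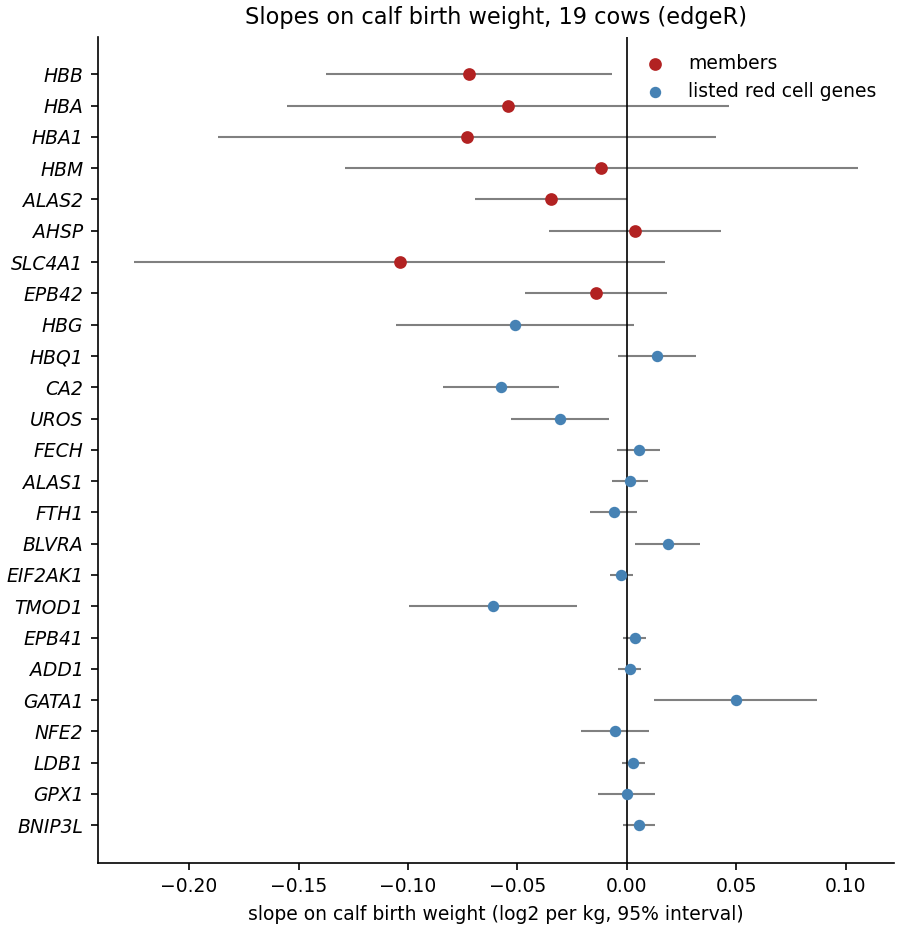
Slope of log2 expression on calf birth weight (log2 per kg) with 95% interval from edgeR in 19 cows. The 8 red cell members tested are red, and genes of the lists, whose cells of origin were not tested, are blue. The interval of HBB (-0.14 to -0.0067) leaves out 0 before adjustment, those of the low-count genes HBA, HBA1, HBM and SLC4A1 are wide, and no gene shown has an edgeR FDR below 0.05.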

How the data were processed

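Blood RNA of 20 cows was sequenced (labels name a SMARTer Stranded kit, the study's methods a Truseq-stranded mRNA kit). Per the labels the authors used FastQC 0.11.9, Trimmomatic, STAR 2.7.0b and featureCounts of Subread 2.0.3, and deposited raw counts per Entrez gene. Globin depletion, the strand setting and the treatment of reads matching several genes are not given in the sources used here. Symbols were taken from the NCBI cattle gene table (ARS-UCD2.0), which matched all 37063 IDs. No pair of the 190 pairs of libraries was a repeat (chi-square per degree of freedom at least 12.2).

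Slopes on BW were fitted with edgeR 4.0.16 (TMM, quasi-likelihood test, Benjamini-Hochberg FDR over all genes) in 19 cows, on genes that reached 10 counts in 5 or more of them. DESeq2 1.42.0 was an alternative, as were other filters, size factors, samples and scales. The scripts were tested on simulated data. With 1 library per cow, p-values set each relation against the spread between cows. That spread includes technical differences between libraries, which cannot be told apart from it. Correlations used 100000 two-sided permutations (scipy 1.17.1). Labels give no batch, and mitochondrially encoded genes took 1.31 to 1.79% of counts.

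The members and lists were chosen with earlier results of these data known. Named are all members, of each list the 2 genes of highest CPM, that of smallest p and any called, and the 5 genes most like HBB and ALAS2. Members of the lists named for their counts alone (HBE1, HBE2, HBE4, HBZ, NGB, EPOR) were chosen after their values were seen, as was the alternative without myoglobin.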

Additional observations from a re-analysis of the deposited data

How the results depend on the processing

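No member had an FDR below 0.05 under any of the 8 other settings or with any of the 19 cows omitted. The number of genes with an FDR below 0.05 over all genes was 0 with edgeR, 189 with DESeq2, 147 with no filter beyond 1 count, 4 with all 20 cows, 1 with the total count as covariate, and 0 to 34 when 1 cow was left out (34 with the 32 kg calf's cow omitted); the cause was not tested. The Pearson r of the globin share with BW was -0.51 on the log2 scale, with an unadjusted permutation p below 0.05. It was -0.43 to -0.32 when 1 cow was left out. CA2 had an FDR of 0.00802 with DESeq2 and 0.0449 with no filter, up to 0.166 in the other settings, and 0.0581 to 0.226 when 1 cow was left out.

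These slopes (log2 per kg) turned sign, none past the test. With all 20 cows ADD1 had -0.000379, ALAS1 -0.000327 and MB -0.019. GPX1 had 0.000215 with DESeq2, 0.000217 with DESeq2's size factors in edgeR and 0.000487 with no filter. HBM had 0.0020 with the total count as covariate. Leaving out 1 cow gave -0.000452 to 0.0022 for ADD1, -0.0038 to 0.015 for AHSP, -0.00011 to 0.0040 for ALAS1, -0.0033 to 0.0025 for GPX1 and -0.13 to 0.026 for HBM. The SD of log2 CPM of SLC4A1 was 1.63 and, with a prior count of 0.5, 2.47. Median counts below 10 limit HBA1, HBM and SLC4A1. No paired analysis was possible because the cows form 1 group, in which replicate numbers pair nothing.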

Other observations

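Myoglobin (MB), a globin of muscle, was at 0 in 12 of the 20 cows and reached 1398 counts in the cow with the 41.5 kg calf, 294 in the cow with the 50 kg calf and 261 in the cow with the 47.4 kg calf. The cows with calves of 36, 35 and 54 kg, which led in HBB, had 0 counts of MB, while those with calves of 39 kg and 32 kg, next in HBB, had 195 and 60. CA3, a muscle carbonic anhydrase, was at 0 in 8 cows and had its highest count, 760, in the same cow of the 41.5 kg calf. CA3 was named after its values were seen. The slope of MB was 0.047 log2 per kg (edgeR FDR = 0.903), which was 0.13 with the cow with the 41.5 kg calf omitted and -0.019 with all 20 cows. With all matched globins counted, Spearman's rho of the share with BW was -0.57, and with MB left out, a choice made after seeing the data, it was also -0.57 (permutation p = 0.011 and 0.00933). Without MB nearly all of these counts are those of HBB, so the second value is no separate support.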
